A study of Homo sapiens with 8 samples.

Results

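*MCM2*, *MCM3*, *MCM4*, *MCM5*, *MCM6* and *MCM7* encode the subunits of the replicative helicase. Their expression was followed on 8 Agilent expression arrays of lung cancer cell lines. The 6 genes were chosen by their symbols. They are 6 of 22439 genes with a symbol on the array and are covered by 8 of its 58201 probes, with a pair of probes each for *MCM5* and *MCM7*. Every probe was well above background in both channels of all 8 arrays, and no spot of theirs was saturated or marked as an outlier, so no member was lost to a filter on dim signals.

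Each array compared treated RNA labeled with Cy5 (red) with control RNA of the same cell line labeled with Cy3 (green), with no dye swap, so any bias between the dyes acted in the same direction on every array. EBC-1 and SK-MES-1 cells, both from lung squamous cell carcinoma (LUSQ), were transfected with *miR-150-3p*, with 1 array each. SBC-3 cells (small cell lung cancer) were transfected with siRNA against *DONSON*, a replication fork factor, with 3 arrays named siDONSON-1, siDONSON-2 and siDONSON-3. A549 cells (lung adenocarcinoma) had *LOXL2*, a lysyl oxidase, edited with CRISPR/Cas9, with 3 arrays named A549-GE1, A549-GE2 and A549-GE3. The control of a transfection is named mock by its source and untransfected by its characteristic, and the control of the editing is unedited A549. The labels do not say whether the 3 siDONSON arrays used different siRNAs or whether the 3 edited samples are clones.

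The MCM proteins form a ring of 6 different subunits that is loaded in an inactive state onto replication origins by ORC, CDC6 and CDT1. At the start of S phase the ring is joined by CDC45 and the GINS complex and becomes the active helicase that opens the DNA ahead of the fork. The genes of the ring are transcribed as cells enter the cycle, largely under E2F factors, and their proteins are common markers of proliferating cells in lung and other tumors.

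All arrays were on 1 slide, and 41.1% to 46.4% of spots were well above background in green and 48.5% to 56.2% in red. The targeted genes checked the labels. *DONSON* had log2 ratios of -2.15, -1.79 and -2.11 on the siDONSON arrays, and *LOXL2* had -2.49, -2.67 and -2.59 on the edited arrays. Markers of the labeled types were present in part. Of 6 squamous markers, *SOX2* alone was above background in EBC-1 control cells, and *KRT14*, *SOX2* and *TP63* in SK-MES-1. Squamous markers above background outside LUSQ were *SOX2* and *TP63* in SBC-3 and *SOX2* in A549. Of 5 adenocarcinoma markers, A549 and EBC-1 both showed *KRT7* and *NAPSA*, SK-MES-1 these and *SFTPC*, and SBC-3 *KRT7*. *NKX2-1* was in none of the 4 lines. Of 7 small cell or neuroendocrine markers, SBC-3 showed *CHGA*, *NEUROD1* and *SYP*, A549 *CHGA*, SK-MES-1 *NCAM1* and EBC-1 0. In the control channels, the arrays of 1 cell line differed from each other with an SD over the brighter probes of 0.139 to 0.152 on the log2 scale in SBC-3 and 0.0938 to 0.101 in A549, against 0.364 to 0.495 and 0.137 to 0.180 in red. Nothing in the labels says that these controls came from separate cultures, so their spread may be technical alone. The p-values below also take in the spread of the treated channel. With 3 groups they take in the difference between EBC-1 and SK-MES-1 as well. How much of the treated spread is biological cannot be told from the labels.

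The promoters are shown because the E2F factors, described below with the other gene lists, are known to act there. RefSeq windows (GRCh38.p14) from 250 bases before to 50 after the transcription start were read for *MCM2*, *MCM3*, *MCM6* and, at its annotated start among several, *MCM7*. Capitals mark the letters TTTGGCGC or TTTCGCGC, the core of an E2F site, on either strand. Each sequence is written 5′ to 3′ on the strand of the gene.
*MCM2*, chr3:127598161-127598460, plus strand: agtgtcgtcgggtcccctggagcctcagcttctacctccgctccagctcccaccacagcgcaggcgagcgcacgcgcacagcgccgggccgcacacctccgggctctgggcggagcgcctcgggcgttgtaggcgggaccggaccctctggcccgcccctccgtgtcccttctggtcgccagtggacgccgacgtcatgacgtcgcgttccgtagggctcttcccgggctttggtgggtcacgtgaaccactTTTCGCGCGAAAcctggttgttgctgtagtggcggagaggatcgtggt
*MCM3*, chr6:52284693-52284992, minus strand: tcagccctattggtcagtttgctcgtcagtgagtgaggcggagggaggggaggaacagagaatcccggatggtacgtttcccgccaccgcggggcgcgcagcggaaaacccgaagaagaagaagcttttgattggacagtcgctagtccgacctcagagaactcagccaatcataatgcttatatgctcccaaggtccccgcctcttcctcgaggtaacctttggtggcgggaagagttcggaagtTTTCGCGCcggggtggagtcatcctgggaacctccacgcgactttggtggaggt
*MCM6*, chr2:135876394-135876693, minus strand: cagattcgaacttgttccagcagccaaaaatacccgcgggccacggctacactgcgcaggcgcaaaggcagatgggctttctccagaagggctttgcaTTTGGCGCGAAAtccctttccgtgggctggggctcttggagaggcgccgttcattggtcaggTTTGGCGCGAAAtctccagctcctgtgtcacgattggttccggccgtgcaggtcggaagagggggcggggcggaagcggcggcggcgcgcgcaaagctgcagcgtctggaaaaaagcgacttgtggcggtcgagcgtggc
*MCM7*, chr7:100101348-100101647, minus strand: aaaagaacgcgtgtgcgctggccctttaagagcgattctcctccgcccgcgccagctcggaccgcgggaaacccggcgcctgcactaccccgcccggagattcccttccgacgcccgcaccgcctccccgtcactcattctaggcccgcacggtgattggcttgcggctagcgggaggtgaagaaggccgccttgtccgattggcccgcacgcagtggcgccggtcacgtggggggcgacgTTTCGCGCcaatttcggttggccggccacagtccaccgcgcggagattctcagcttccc
All 4 windows held the E2F letters, whereas 403 of 35116 windows of the same length (1.15%) did. A gene can hold several of the 35116 windows, whereas each gene shown here had only that of its annotated start. Windows of *MCM4* and *MCM5* were not included, that of *MCM4* through a rule set by hand. The count of windows with E2F letters thus does not describe all genes of the ring. In *MCM2* and *MCM6* the letters lay on both strands and overlapped each other. *MCM2* had them at bases 3 and 7 after the start. *MCM3* had them 4 bases and *MCM7* 9 bases before it. *MCM6* had 4 matches, beginning at -152, -148, -90 and -86 from the start. The letters CCAAT, a common promoter element, occurred on either strand 3 times in *MCM3*, 2 times in *MCM6*, 3 times in *MCM7* and 0 times in *MCM2*, against 34.6% of all windows with a match. These are matches of letters, not measured binding.

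After ectopic expression of *miR-150-3p*, all 6 genes were low in EBC-1 cells and close to their control in SK-MES-1 cells. Log2 ratios of treated over control are given with the error of the array software, whose 95% limits cover the spot measurement and not biological replication. *MCM6* was lowest in EBC-1, with a log2 ratio of -2.09 ± 0.28 (23.5% of the control). In SK-MES-1 it was -0.079 ± 0.20. *MCM4*, a subunit of the stable MCM4, MCM6 and MCM7 subcomplex together with *MCM6*, was -2.07 ± 0.28 in EBC-1 (23.9% of the control) and -0.16 ± 0.20 in SK-MES-1. *MCM7*, the third gene of that subcomplex, was -1.58 ± 0.25 in EBC-1 (33.6% of the control) and -0.059 ± 0.20 in SK-MES-1. Thus the 3 genes of the subcomplex were lowered to between 23.5% and 33.6% of the control in EBC-1.

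The other 3 subunits were low in EBC-1 too. *MCM3*, which pairs with *MCM5* beside the gate through which the ring is opened or closed, was -1.71 ± 0.26 in EBC-1 (30.6% of the control) and -0.12 ± 0.20 in SK-MES-1. *MCM2*, whose tail also binds histones, was -1.52 ± 0.25 in EBC-1 (34.8%), against -0.016 ± 0.20 in SK-MES-1. *MCM5*, which forms the gate with *MCM2*, was -1.47 ± 0.24 in EBC-1 (36.2%), against 0.17 ± 0.20 in SK-MES-1. It was the only member above 0 in SK-MES-1. In EBC-1 all 6 genes lay below the 95% limits, and in SK-MES-1 0 of 6 did. How many of all genes lay outside such limits was not counted on any array, so these counts have no background share.

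**Figure D1:**
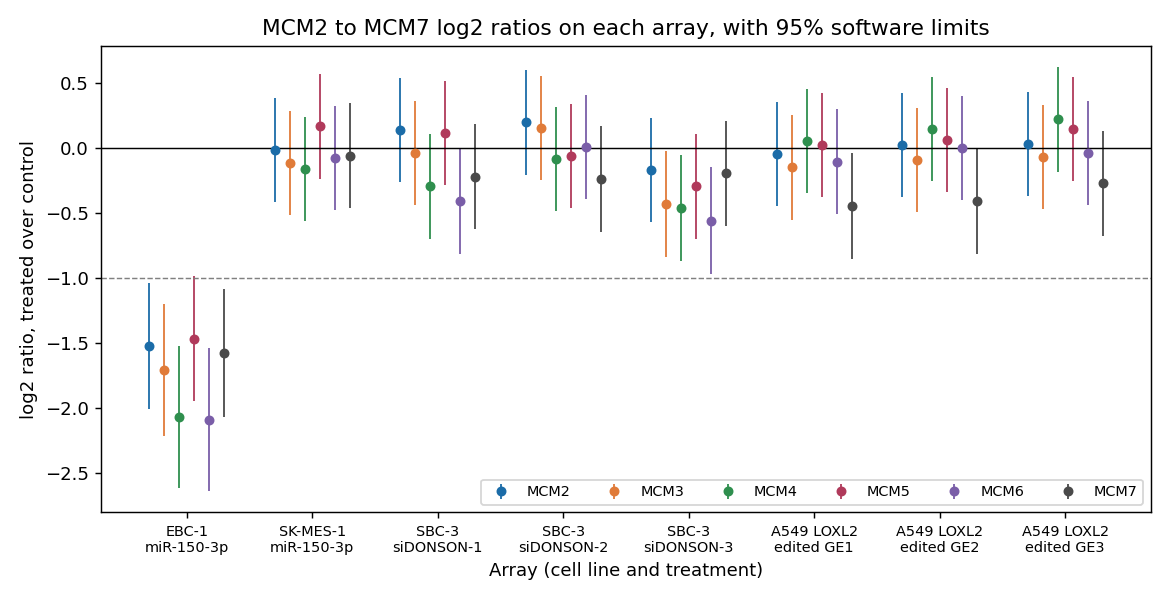
Log2 ratio of treated over control (vertical axis) for the 6 genes on each of the 8 arrays (horizontal axis), with bars of 95% software limits and a dashed line at -1. The 6 genes sit between -2.09 and -1.47 on the EBC-1 array, and between -0.56 and 0.22 on the other 7 arrays.

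The 6 genes lay together in EBC-1, with a range from -2.09 to -1.47. Of 15 pairs of genes, 0 differed by more than the 95% limits of their difference, so that no order among the subunits could be told from this array. A log2 ratio below -1 was reached by 6 of 6 members and by 6.04% of the 14759 genes measured in EBC-1. In SK-MES-1 it was reached by 0 of 6, against 1.27% of 16176 genes. Within EBC-1, only 0.759% of the genes measured were lower than *MCM6* and 2.65% were lower than *MCM5*. The median of the members was -1.64 in EBC-1, against -0.069 in SK-MES-1, beside medians of all genes of 0.053 and 0.018.

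The pairs of probes gave like values. In EBC-1 the *MCM5* probes were at -1.36 and -1.57 and the *MCM7* probes at -1.69 and -1.46. In SK-MES-1 they were at 0.23 and 0.11, and at -0.089 and -0.030. Over all 8 arrays the probes of a gene differed by 0.036 to 0.22.

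The mean over both LUSQ cell lines was tested against 0 with limma over all 8 arrays, as was each of the other groups. The means ranged from -1.12 ± 0.36 (SE) for *MCM4* to -0.65 ± 0.32 for *MCM5*. By limma with Benjamini-Hochberg adjustment 0 of 6 genes passed 0.05 (adjusted p = 0.0942 to 0.209), where 5.38% of 14229 genes did. An unadjusted p below 0.05 was reached by 5 of 6, against 4266 of 14229 genes. In this fit the difference between the cell lines counts as spread. With EBC-1 and SK-MES-1 as groups of their own (4 groups in all), each of them holds 1 array, and the means were the same. Without the SK-MES-1 array the values were -2.09 to -1.47, and without the EBC-1 array -0.16 to 0.17. In a fit of the LUSQ arrays alone 0 of 6 had an unadjusted p below 0.05 (limma, adjusted p = 0.377 to 0.485), against 1944 of 14229 genes. After adjustment 0 of 14229 genes passed. With the mean of the 6 other arrays subtracted 0 of 6 passed (limma, adjusted p = 0.217 to 0.403), against 201 of 13494 genes. There 2 of 6 had an unadjusted p below 0.05, against 2783 of 13494 genes.

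The difference between the cell lines was tested with the same 4 groups, in which the lone arrays of EBC-1 and SK-MES-1 are assumed to vary like the siDONSON and edited arrays. All 6 genes were lower in EBC-1, by -2.01 ± 0.28 (SE) for *MCM6*, -1.90 ± 0.23 for *MCM4*, -1.63 ± 0.23 for *MCM5*, -1.59 ± 0.28 for *MCM3*, -1.52 ± 0.17 for *MCM7* and -1.51 ± 0.22 for *MCM2*. In limma 6 of 6 passed 0.05, with adjusted p from 0.0261 (*MCM7*) to 0.0493 (*MCM3*). The share among 14229 genes was 2.07%, and 1.55% for lower genes. These calls rested on every A549 array: without A549-GE1, A549-GE2 or A549-GE3, 0 of 6 passed (adjusted p = 0.0853 to 0.136), although the differences were as large and 6 of 6 had an unadjusted p below 0.05. In those fits limma called 0 of 14229 genes, of which 1877 to 2037 had an unadjusted p below 0.05. Without siDONSON-1, 5 of 6 passed, and without the filter on dim probes 2 of 6 did.

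The genes that work around the ring were described by lists. Of 13 genes for activation of the helicase, 11 were below -1 in EBC-1, against 0 in SK-MES-1, with medians of -1.63 and -0.29. *MCM10*, which helps to start the loaded helicase, was the lowest of them at -2.97 in EBC-1, against -0.53 in SK-MES-1. *DBF4B*, a regulatory subunit of the CDC7 kinase, was the highest at -0.029 and -0.14, but its control signal in EBC-1 was not well above background. For the difference between the cell lines, 7 of 13 passed the limma test, all 7 lower in EBC-1, with *MCM10* at -2.44 (adjusted p = 0.0137).

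Of 9 licensing genes, 5 were below -1 in EBC-1, against 0 in SK-MES-1. *ORC6*, the smallest ORC subunit, was lowest at -2.20 in EBC-1, against -0.21 in SK-MES-1. *ORC4*, another ORC subunit, was highest at 0.16 and 0.012, but only 1 of its 2 probes was well above background in the EBC-1 control. With both channels required to be well above background, 9 of 9 licensing genes were below 0 in EBC-1, the highest at -0.10. Between the cell lines, 1 of 9 passed in limma. This was *GMNN*, the inhibitor of CDT1, at -1.25 (adjusted p = 0.0316), named after its value was seen.

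Of 6 genes of the replisome and of helicase unloading, all 6 were below -1 in EBC-1, against 0 in SK-MES-1, and 4 of 6 passed for the difference. These were *CLSPN* (-2.12), *TRAIP* (-1.92), *WDHD1* (-1.73) and *TIMELESS* (-1.68), the last 3 named after their values were seen. *CLSPN*, a fork and checkpoint mediator, was lowest at -2.70 and -0.59. *LRR1*, the substrate receptor of the ubiquitin ligase that marks MCM7 for unloading, was highest at -1.34 and 0.083. The relatives of the ring moved less. *MCM8*, a helicase of homologous recombination, was -0.92 in EBC-1, against 0.067 in SK-MES-1. Its partner *MCM9* was -0.33 and 0.096, but 1 of its 4 probes was well above background in EBC-1 and 4 of 4 in SK-MES-1. These *MCM9* values thus do not average the same probes. *MCMBP*, a binding protein of the MCM subunits, was -1.04 and -0.29. Of these 3 genes 0 passed for the difference (adjusted p = 0.0777 to 0.558), and with unadjusted p below 0.05 there were *MCM8* and *MCMBP*. *MCMDC2*, a meiotic relative, was not measured in EBC-1.

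Of 8 E2F factors, 4 were below -1 in EBC-1, against 0 in SK-MES-1. *E2F2*, an activator, was lowest at -2.87 and -0.80, and the repressor *E2F6* was highest at 0.29 and 0.097. For the difference 2 of 8 passed, *E2F1* at -2.12 (adjusted p = 0.0408) and *E2F7* at -1.85 (adjusted p = 0.0316), both named after their values were seen. Of 7 proliferation genes all 7 were below -1 in EBC-1, 0 in SK-MES-1, and 4 of 7 passed. These were *PCNA* (-2.12), *RRM2* (-2.10, named after its value was seen), *TYMS* (-1.93) and *CCNB1* (-1.32). *PCNA*, the sliding clamp of the polymerases, was lowest at -2.54 and -0.43, and *CCNB1*, a mitotic cyclin, highest at -1.31 and 0.014. The low MCM genes thus stood beside low markers of proliferation, whose part in the result was not tested. In bulk RNA, fewer cycling cells and less RNA per cell cannot be told apart.

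These ratios depend on the background correction where the signal is dim. With a normexp correction with an offset of 50, which shrinks the ratios of dim probes, the members kept 6 of 6 below -1 in EBC-1 (from -1.94 to -1.19), while 1.75% of all genes were. The same correction left 5 of 13 activation genes, 2 of 9 licensing genes, 3 of 6 replisome genes, 2 of 8 E2F factors and 5 of 7 proliferation genes below -1. *MCM10* was then at -0.62, *CLSPN* at -0.55, *ORC6* at -1.40, *LRR1* at -0.54 and *MCM8* at -0.67.

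**Figure D2:**
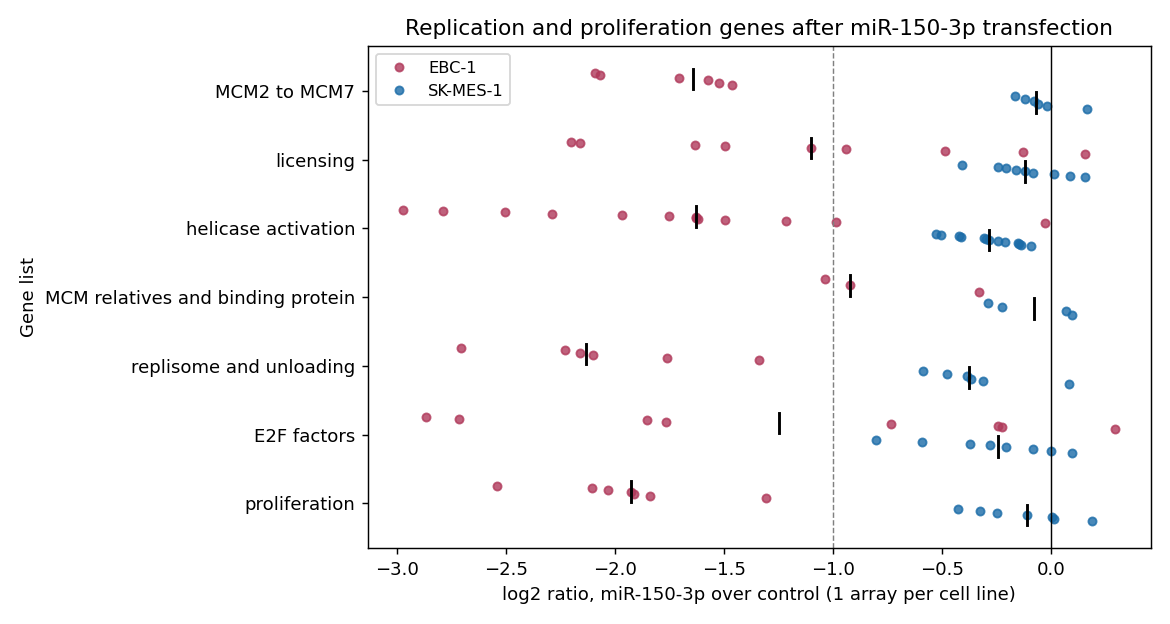
Log2 ratio of *miR-150-3p* over control (horizontal axis) for each gene of the 7 lists (vertical axis) on the EBC-1 array (red) and the SK-MES-1 array (blue), with black bars at the medians and a dashed line at -1. The MCM genes lie below -1 in EBC-1 together with all 6 replisome genes and all 7 proliferation genes, and no gene shown lies below -1 in SK-MES-1.

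The genes most like the MCM genes across the 8 arrays were searched among 11228 genes by the root mean square difference from the mean profile of the 6 members. *POLA1*, the catalytic subunit of the polymerase that makes the first primers, was nearest (0.0756). It was at -1.58 in EBC-1, against -0.11 in SK-MES-1. The next were the kinase *MELK* (0.104), the chromatin remodeler *HELLS* (0.105), *FANCG* of the Fanconi anemia pathway (0.114) and the mitotic kinase *MASTL* (0.129). They were followed by *TYMS* (thymidylate synthesis, 0.131), *RFC4* (clamp loader, 0.134), *MMS22L* (fork repair, 0.137), *POLE2* (polymerase epsilon, 0.139) and *ITGB3BP* (centromere, 0.140). All 10 were between -2.04 and -1.49 in EBC-1, which follows from the search, since it took in that array. On the other 7 arrays the members lay between -0.56 and 0.22, so that most of their range comes from the EBC-1 array. With normexp 6 of these 10 genes were below -1, and *POLA1* was at -0.94.

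In SBC-3 cells with *DONSON* knocked down, the MCM genes moved little. *MCM6* was at -0.41, 0.011 and -0.56 on the siDONSON-1, siDONSON-2 and siDONSON-3 arrays. *MCM4* was at -0.29, -0.088 and -0.46. *MCM7* was at -0.22, -0.24 and -0.20. Both *MCM4* and *MCM7* were thus below 0 on 3 of 3 arrays. *MCM3* was at -0.035, 0.15 and -0.43. *MCM5* was at 0.12, -0.060 and -0.29. *MCM2* was at 0.14, 0.20 and -0.17. The siDONSON-3 array held all 6 genes below 0, and *MCM3*, *MCM4* and *MCM6* outside the 95% limits. The siDONSON-1 array had 1 gene outside them (*MCM6*), and siDONSON-2 had 0.

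By limma 0 of 6 genes passed 0.05 in this group (adjusted p = 0.562 to 0.906), where 7.22% of 14453 genes did. At an unadjusted p below 0.05 there were also 0 of 6, against 3771 of 14453 genes. A fit of the siDONSON arrays alone likewise gave 0 of 6, against 2613 of 14453 genes. The unadjusted count turned with the arrays that set the spread. With EBC-1 and SK-MES-1 as groups of their own, or without either of these arrays, it was 3 of 6, against 4340 of 14453 genes. There too 0 of 6 passed (limma, adjusted p = 0.104 to 0.721). Means ran from -0.32 ± 0.32 (SE) for *MCM6* to 0.056 ± 0.24 for *MCM2*. The 95% intervals of the means lay within -1.05 and 0.61, so that a change as large as in EBC-1 lay outside them. *DONSON* itself was at -2.02 ± 0.16 (adjusted p = 0.00168), or -0.89 with the normexp correction. The members' median was -0.16, against 0.031 for all genes.

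In A549 cells with *LOXL2* edited, *MCM7* was the gene that stood lowest. It was at -0.45, -0.41 and -0.27 on the A549-GE1, A549-GE2 and A549-GE3 arrays, outside the 95% limits on the first 2. Both probes were below 0 on 3 of 3 arrays, at -0.53, -0.44 and -0.38 and at -0.36, -0.38 and -0.16. *MCM4* was at 0.052, 0.14 and 0.22. *MCM3* was at -0.15, -0.089 and -0.071. *MCM5* was at 0.019, 0.064 and 0.15. *MCM6* was at -0.10, -0.00018 and -0.042, and *MCM2* at -0.044, 0.025 and 0.030. Apart from *MCM7*, each value was within its limits.

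In limma 0 of 6 passed 0.05 (adjusted p = 0.323 to 0.994), where 14.4% of 15531 genes did. An unadjusted p below 0.05 was likewise reached by 0 of 6, against 4817 of 15531 genes. The mean of *MCM7* was -0.38 ± 0.24 (SE, adjusted p = 0.323). This call turned with the arrays that set the spread. With EBC-1 and SK-MES-1 as groups of their own, or without either of these arrays, *MCM7* passed (adjusted p = 0.0196), and in a fit of the 3 edited arrays alone it passed too (adjusted p = 0.0188). Its value was the same in all of these fits. Many other genes passed in them too: 5873 of 15531 with the edited arrays alone and 2889 of 15531 with the 4 groups. The pass of *MCM7* there thus does not set it apart from genes in general. *LOXL2* was at -2.58 ± 0.23 (adjusted p = 0.00126). Among the other replication genes only *E2F5*, an E2F repressor, passed, at 0.41 ± 0.10 (adjusted p = 0.0351). Its values were 0.43, 0.35 and 0.46. It did not pass without A549-GE1, A549-GE2 or A549-GE3 (adjusted p = 0.149 to 0.178), nor before dye normalization (adjusted p = 0.0575).

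The siDONSON and edited groups were also compared with each other, as 2 treatments in different cell lines. The differences ran from -0.42 ± 0.41 (SE) for *MCM4* to 0.16 ± 0.33 for *MCM7*. By limma 0 of 6 passed (adjusted p = 0.582 to 0.999), where 7.29% of 13655 genes did. An unadjusted p below 0.05 was likewise reached by 0 of 6, against 3474 of 13655 genes. In a limma fit of the siDONSON and edited arrays alone 0 of 6 passed. There 1 of 6 had an unadjusted p below 0.05 (*MCM4*, adjusted p = 0.0894), as did 4029 of 13655 genes.

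**Figure D3:**
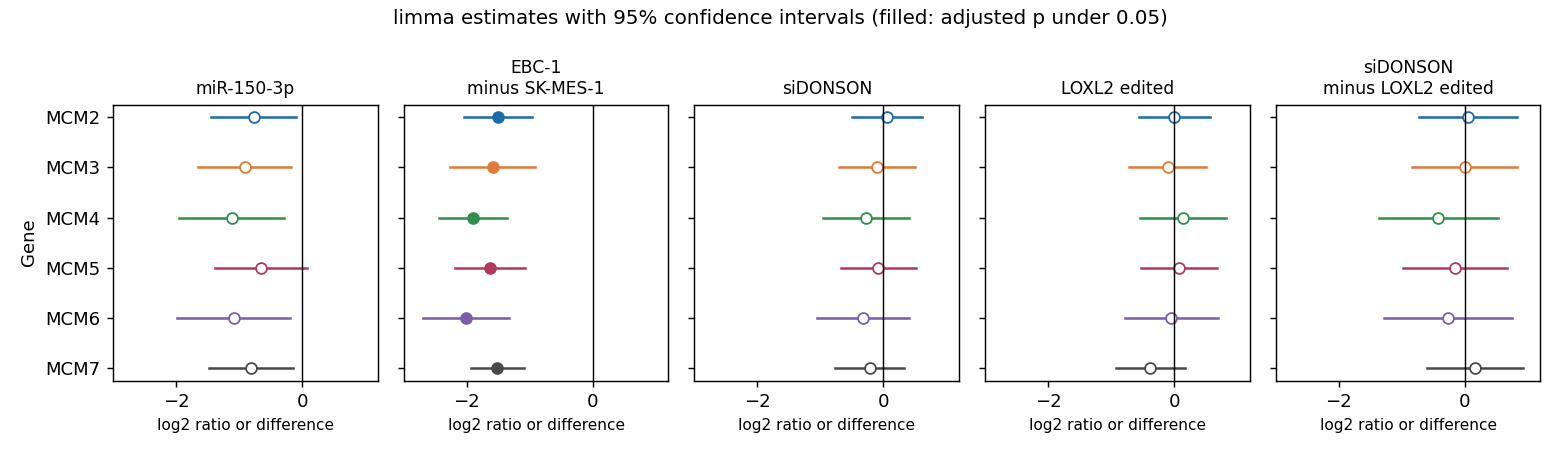
Estimates from limma (points) with 95% confidence intervals (lines) on the log2 scale for the 6 genes in the 5 comparisons, filled where the adjusted p was under 0.05. The filled points are the 6 genes of EBC-1 minus SK-MES-1, from -2.01 to -1.51, and the siDONSON and edited means lie between -0.38 and 0.14.

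The level of each gene before treatment was read from the control channel, as the log2 intensity over the 75th percentile of the array, and compared between cell lines only within a probe. EBC-1 and SK-MES-1 have 1 control each, so these differences have no replicate check. Among the 3 controls of a line, the range was 0.060 to 0.17 in SBC-3 and 0.027 to 0.077 in A549.

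*MCM7* differed most between the cell lines. Its probes were at 9.80 and 4.54 in EBC-1. In SK-MES-1 they were at 6.30 and 0.93, or 3.51 and 3.60 lower (11.4- and 12.2-fold). In A549 they averaged 7.96 and 2.39, and in SBC-3 6.74 and 1.09. Only 0.765% and 0.68% of 21182 probes were as far above in EBC-1 as against SK-MES-1. The order EBC-1, A549, SBC-3, SK-MES-1 was the same for both probes, and under all 5 scalings. The step from SBC-3 to SK-MES-1 was small for the second probe (0.16, against a range of 0.17 in SBC-3).

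*MCM6* was at 5.97 in EBC-1, 5.39 in A549, 4.37 in SK-MES-1 and 4.08 in SBC-3, an order that also held under all 5 scalings. *MCM4* was at 5.28 in EBC-1, 4.21 in SBC-3, 4.12 in A549 and 3.96 in SK-MES-1. *MCM2* was at 5.37 in EBC-1, 4.48 in SK-MES-1, 4.0 in A549 and 3.91 in SBC-3. *MCM3* was at 7.13, 6.18, 6.01 and 5.82 in the same order. For *MCM2*, *MCM3* and *MCM4* EBC-1 was highest under all 5 scalings, while the order of the other 3 lines turned with the scaling.

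*MCM5* had another pattern. Its first probe was at 4.64 in EBC-1, 4.74 in SK-MES-1, 4.57 in A549 and only 3.29 in SBC-3. Its second probe was at 3.02, 2.99, 2.88 and 1.73 in the same order. The first 3 lines differed by at most 0.17, and their order turned with the scaling. SBC-3 was lowest under all 5 scalings.

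Across the 8 probes, EBC-1 was more than 1 above SBC-3 in 8 of 8 (all probes 21.2%), above A549 in 5 of 8 (17.5%) and above SK-MES-1 in 4 of 8 (16.9%). SBC-3 was more than 1 below A549 in 5 of 8 (15.4%), SK-MES-1 below A549 in 3 of 8 (14%) and above SBC-3 in 2 of 8 (15.9%). The median of all probes was itself higher in EBC-1, by 0.20 against SK-MES-1 and against SBC-3, and by 0.18 against A549. Over that median, 7 of 8 probes were more than 1 above SBC-3, 3 of 8 above A549 and 4 of 8 above SK-MES-1. Likewise SK-MES-1, relative to the median of all probes, was more than 1 below A549 in 2 of 8. After quantile scaling, EBC-1 was more than 1 above SBC-3 in 4 of 8 and above A549 in 3 of 8. After normexp and quantile scaling these counts were 3 and 3, and SBC-3 and SK-MES-1 were each more than 1 below A549 in 1 of 8 and SK-MES-1 above SBC-3 in 1 of 8.

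**Figure D4:**
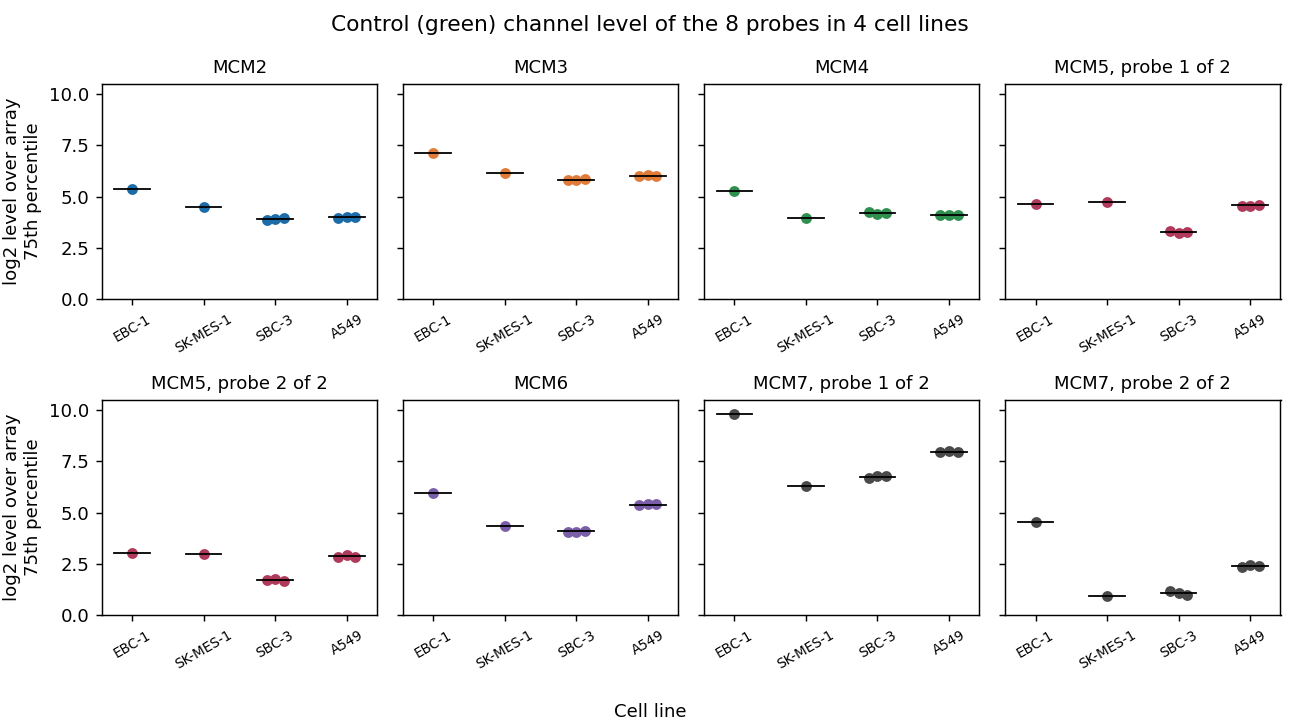
Control channel level (vertical axis, log2 over the 75th percentile of the array) of each of the 8 probes in the 4 cell lines, with points for arrays (1 in EBC-1 and SK-MES-1, 3 in SBC-3 and A549) and bars for means. Both *MCM7* probes are highest in EBC-1, at 9.80 and 4.54, whereas the *MCM5* probes are level in EBC-1, SK-MES-1 and A549.

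The level that remained after *miR-150-3p* was set beside the SK-MES-1 control, each from the processed signal of its array. This sets the red channel of the EBC-1 array against the green channel of the SK-MES-1 array, with no dye swap and no replicate. No other scaling was run for it. For *MCM2*, *MCM3*, *MCM4*, *MCM5* and *MCM6*, transfected EBC-1 cells lay below untreated SK-MES-1 cells, by -0.49 (*MCM6*) to -1.54 (the second *MCM5* probe). *MCM7* was still 1.82 and 2.14 above the SK-MES-1 control.

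Because *MCM7* stood apart, the genes next to each MCM gene were examined, 10 measured genes on either side in RefSeq gene order. Around *MCM7*, 16 of 20 neighbors were more than 1 higher in the EBC-1 control than in that of SK-MES-1, with a median difference of 1.48. The exceptions were *ZNF3*, *MBLAC1*, *PVRIG* and *PMS2P1*, of which *ZNF3*, a zinc finger gene, was at -0.17. Around the other 5 genes 2 to 7 of 20 were, and 18.2% of 12650 genes in all. Against SBC-3, 11 of 19 measured neighbors of *MCM7* were more than 1 higher, and against A549 9 of 20. None of the 20 fell or rose by more than 1 after *miR-150-3p* in EBC-1 (0 of 20), where they lay between -0.50 and 0.60. The neighbors were looked at after the level of *MCM7* was seen, and genes next to each other are not independent of each other.

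**Figure D5:**
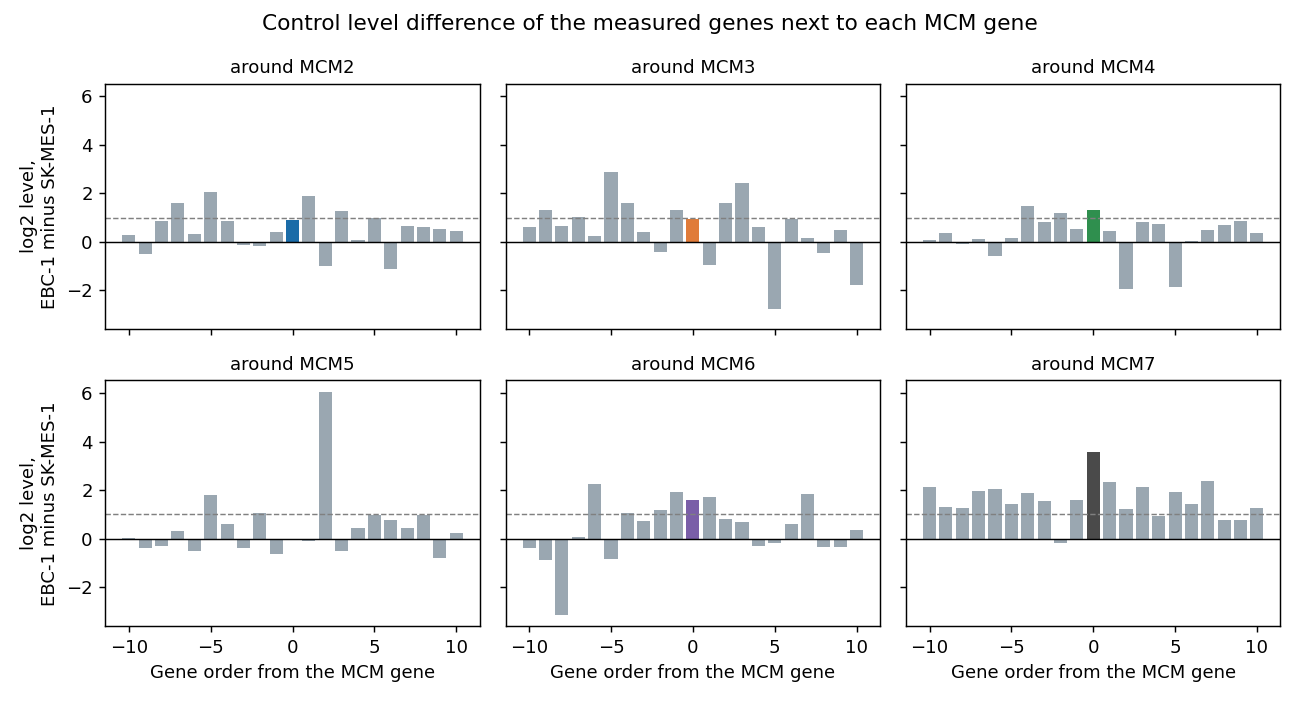
Difference of the control level between EBC-1 and SK-MES-1 (vertical axis, log2) for the 10 measured genes on either side of each MCM gene (horizontal axis, gene order, not distance), with the MCM gene colored and a dashed line at 1. Around *MCM7* 16 of 20 neighbors are above 1, whereas around the other genes 2 to 7 are.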

How the data were processed

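RNA of treated (Cy5) and control (Cy3) cells was measured on 8 two-color Agilent arrays. The authors deposited Feature Extraction 12.1.1.1 output, with intensities of both channels before and after background subtraction and dye normalization, and the log10 of red over green together with a spot error. Their value table holds the same log10 ratios and was checked to be identical. Processing intensities within each array fixes the middle of the ratios near 0, so changes are relative to the other genes. Here log2 ratios were computed from the processed intensities, marked spots were left out, spots of a probe and probes of a gene were averaged, and a probe was used on an array where either channel was well above background. A gene was tested if measured on the arrays the comparison needs. Symbols came from RefSeq accessions. Groups were fitted over all 8 arrays with limma 3.58.1 (R 4.3.3), as 3 groups (5 residual degrees of freedom) or as 4 groups (4) for EBC-1 minus SK-MES-1, with Benjamini-Hochberg adjustment at 0.05. The scripts were tested on simulated data. The number of arrays limits the precision.

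The 6 members, the gene lists and the alternatives were chosen with earlier results of these data known. Genes named are the members, *DONSON*, *LOXL2*, *MCM8*, *MCM9*, *MCM10*, *MCMBP*, the lowest and highest gene of each list in EBC-1, list genes called in a comparison where 5 or fewer were over all lists, and the 10 most alike. The alternatives are other background corrections, centrings, filters, probe rules, model groups and the omission of each array. The normexp correction used median spot signals, a choice made after the files were seen.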

Additional observations from a re-analysis of the deposited data

Results flagged for a closer look

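For the 6 genes, the difference of the *miR-150-3p* response between the 2 LUSQ cell lines passed a test of the difference itself, which takes all its spread from the siDONSON and edited arrays. The log2 ratio in EBC-1 minus that in SK-MES-1 was -1.51 for *MCM2*, -1.59 for *MCM3*, -1.90 for *MCM4*, -1.63 for *MCM5*, -2.01 for *MCM6* and -1.52 for *MCM7* (limma, adjusted p = 0.0261 to 0.0493). Without any 1 of the A549 arrays, 0 of 6 passed (adjusted p = 0.0853 to 0.136). Each cell line had 1 array, so that this difference has no replicate of its own. Cell line, culture and transfection cannot be told apart. How much *miR-150-3p* entered either line was not measured on these arrays.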

How the results depend on the processing

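Counts of members called were recomputed under each alternative. The EBC-1 minus SK-MES-1 count of 6 was 2 without the filter on dim probes, where more genes are tested, 5 with the brightest probe of each gene and 5 with a trended and robust eBayes, and ranged from 0 to 6 when each of the 6 siDONSON and edited arrays was left out in turn (neither EBC-1 nor SK-MES-1 can be left out of this comparison). The *miR-150-3p* count of 0 stayed at 0 in the fit of its own arrays alone and with the mean of the 6 other arrays subtracted. It changed in the fit of 4 groups and without the SK-MES-1 array, fits that leave 1 array in a group. The count of 0 in the edited group became 1 (*MCM7*) in the fit of its own arrays alone and in the fit of 4 groups, where 5873 and 2889 of all 15531 genes passed. It ranged from 0 to 1 when an array was left out. The counts of 0 for siDONSON and for siDONSON minus *LOXL2* edited stayed at 0 under every alternative run, from 0 to 0 when an array was left out. With normexp, genes below the software limits went from 1 to 0 on siDONSON-1, A549-GE1 and A549-GE2. Probes more than 1 apart in control level went to 4 (EBC-1 against SBC-3) and 3 (EBC-1 against A549) with quantile scaling, to 3 (EBC-1 against A549) with the array median as scale, and with normexp to 3, 3, 1, 1 and 1 (EBC-1 against SBC-3, EBC-1 against A549, SK-MES-1 against SBC-3, SK-MES-1 against A549, SBC-3 against A549). The count of 3 for SK-MES-1 against A549 was 2 before dye normalization. Small means changed sign. In siDONSON *MCM5* was 0.010 with normexp, and with siDONSON-2 left out *MCM2* was -0.015, and with siDONSON-3 left out *MCM3* was 0.058 and *MCM5* 0.028 (over the omissions of an array *MCM3* ranged from -0.23 to 0.058 and *MCM5* from -0.18 to 0.028). In the edited group *MCM2* was -0.018 with median centring, -0.13 before dye normalization, -0.00682 without A549-GE2 and -0.0095 without A549-GE3, with 0.027 as the highest value over the omissions, and *MCM5* was -0.022 before dye normalization. In siDONSON minus edited *MCM3* was 0.00214 before dye normalization, 0.16 without siDONSON-3, 0.0060 without A549-GE2 and 0.015 without A549-GE3, and *MCM2* was -0.019 without siDONSON-2. *MCM5* was 0.17 for *miR-150-3p* without EBC-1 and -1.47 without SK-MES-1. The causes of these changes were not tested. All other means of the members kept their direction. Of the values of single genes on single arrays, 910 moved by less than the software error and 33 by more, with 0 changes of sign among those outside the limits. No paired analysis was possible because samples with the same number in the siDONSON, edited and *miR-150-3p* groups are different cell lines and treatments. The alternative with the symbols of the array files was not run, since the files used here hold no such column, and a slide block was not run because there is 1 slide.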

Other observations

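*PRKDC*, the gene next to *MCM4* in gene order and a kinase of DNA end joining, had a log2 ratio of -1.05 in EBC-1, against -0.060 in SK-MES-1 after *miR-150-3p*, beside -2.07 and -0.16 for *MCM4*. It was the only 1 of 20 neighbors of *MCM4* below -1 in EBC-1, where 6.04% of all genes were, and around *MCM2*, *MCM3* and *MCM6* 3 of 20 each were. *DONSON*, the gene silenced in SBC-3, was itself at -1.02 in EBC-1, against -0.22 in SK-MES-1 after *miR-150-3p*. With normexp it was at -0.35 in EBC-1. *PRKDC* was chosen after its value was seen.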
